A study of Mus musculus with 14 samples.

Results

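Of the 8 dorsal horn microglia libraries made after K/BxN serum transfer (ST), 4 held almost no reads of Ly6c2, a surface antigen of classical monocytes, and these 4 libraries were compared with the 6 Control ST libraries of the same experiment. They were chosen by a measured value, a Ly6c2 normalised count below 100, and are TASTPM replicates 3 and 4 and the third and the fourth WT library in the order of the deposited values. Normalised counts are the reads of a gene divided by 1 factor per library. The 4 chosen libraries had Ly6c2 at 12.9, 10.2, 3.58 and 13.1, and the lowest of the 4 K/BxN ST libraries left out had 12898, so no library lay near the limit. In Control ST it was at 2.09, 17.8 and 7.27 in TASTPM and at 1.87, 3.35 and 1.91 in WT. Ly6c2 and the monocyte genes that follow it are therefore described without a test, and the comparisons below are between these libraries and not between the whole treatment groups.

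The study asked whether microglia of the spinal cord answer an inflammatory arthritis differently in mice that model Alzheimer's disease. The mice were 6 months old and of both sexes, either C57BL/6 wild type (WT) or heterozygous TASTPM, which carry human mutant transgenes, APP Swedish among them, driven by the neuronal Thy-1 promoter. K/BxN serum, which holds autoantibodies that cause joint inflammation, or pooled serum of arthritis-free KRN/C57 mice (Control ST) was injected on days 0 and 2, and tissue was taken on day 5. Each library came from 2000 CD45low CD11b+ CX3CR1+ cells sorted from the dorsal lumbar cord, with amplified cDNA, and the comparison holds 2 K/BxN ST and 3 Control ST libraries in each genotype. The gate for isolating microglia is also described as excluding cells with Ly6C or CCR2 on their surface. The methods give the replicates of experiments as individual mice, whereas the labels of these libraries do not, and the p values measure the spread between these libraries.

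Microglia are the resident macrophages of the spinal cord. In the healthy cord they carry a homeostatic programme, with P2ry12, Tmem119 and Cx3cr1 among its best known genes, which depends on TGF-beta and CSF1 receptor signalling. Monocytes are a separate blood lineage that can enter or adhere to inflamed tissue, and a sort on CD45low is meant to leave them out because they carry more CD45 than microglia. In bulk RNA fewer cells of a type and less RNA per cell cannot be told apart.

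The 10 libraries held 14223000 to 20239200 reads on genes. The 4 K/BxN ST libraries were shallower, with 14223000 to 15248100 against 15065000 to 20239200 in Control ST (exact permutation test within genotype, two-sided, p = 0.02, smallest possible p 0.01), whereas the genes detected did not separate the groups (exact permutation test, p = 0.76). WT Control ST library 1, with 12182 genes detected, and TASTPM K/BxN ST replicate 3, with 12483, lay alone at the ends of the first and the second principal component. Sex-linked transcripts also differed between the libraries. Xist, expressed from the inactive X chromosome of females, was at 3247 to 5816 and the Y-linked Ddx3y at 1.13 or less in 3 of the 4 K/BxN ST libraries, while TASTPM K/BxN ST replicate 3 had Xist at 1.17 and Ddx3y at 1048. In WT Control ST, Ddx3y was at 653, 1027 and 236, and Xist was at 2.81, 45.3 and 1706, so that the last library held both transcripts. In TASTPM Control ST, Xist was at 4321, 5048 and 202 and Ddx3y at 0, 3.33 and 1481. In WT, Ddx3y was thus at 0 in the 2 K/BxN ST libraries and at 236 to 1027 in the 3 Control ST libraries. Sex and serum therefore cannot be told apart in WT. The part of depth and sex in the results below was not tested. A fit with a sex-linked score called 0 genes, but the main fit called 0 as well, so this count cannot show that part.

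Monocyte transcripts took a share of the reads in the 4 libraries that lay within the Control ST range. The 16 monocyte genes listed took 0.0582% to 0.0738% of the reads, against 0.0538% to 0.142% in Control ST and 2.39% to 4.60% in the other K/BxN ST libraries. Ccr2, the chemokine receptor of classical monocytes, was at 16.4 and 14.7 in the TASTPM and 5.97 and 9.81 in the WT libraries chosen, against 3.13 to 86.0 in Control ST and 8537 to 27035 in the K/BxN ST libraries left out. For 12 of the 16 genes all 4 libraries lay within the Control ST range. F13a1, the A subunit of coagulation factor XIII, was at 15.3 and 62.0 in TASTPM K/BxN ST against 128, 218 and 969 in TASTPM Control ST, and at 4.78 and 11.99 against 13.1, 3.35 and 66.9 in WT. Its TASTPM values did not overlap and its WT values did. Clec4e and S100a4 had no read in any of the 4 libraries.

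Neutrophil genes gave a like picture with 1 exception on the other side. They took 0.0422% to 0.0711% of the reads in the 4 libraries and 0.0243% to 0.0698% in Control ST, while 3 of the 4 libraries left out held 1.27% to 1.41% and the fourth, WT library 2, only 0.0634%. S100a8, a calcium-binding protein of neutrophils and monocytes, was at 24.7, 28.2, 5.97 and 378 in the 4 libraries and reached 969 in WT Control ST library 3. Lyz2 and Csf3r, which microglia also express, made up 93.2% to 96.4% of the monocyte reads and 89.0% to 99.7% of the neutrophil reads in the 4 libraries. Lyz2 was at 9022 to 11869 there, against 8743 to 22933 in Control ST. The 14 T and NK cell genes listed were not analysed here.

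**Figure D1:**
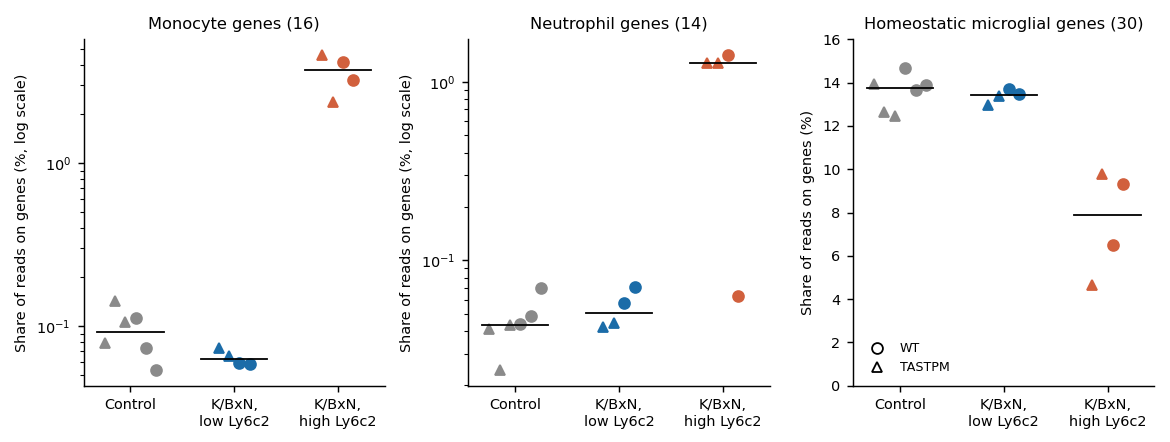
Share of the reads on genes taken by 16 monocyte genes, 14 neutrophil genes and 30 homeostatic microglial genes in each of 14 libraries, with a line at the median of each group; circles are WT and triangles TASTPM. The 4 K/BxN ST libraries with Ly6c2 under 100 lie within or beside the Control ST libraries in every panel, at 12.96% to 13.7% for the microglial genes, while the other 4 K/BxN ST libraries hold 4.64% to 9.79%.

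Across the transcriptome no gene was called between the 4 K/BxN ST and the 6 Control ST libraries. limma was fitted to log2(normalised count + 1) with genotype as a covariate, and a call needed a Benjamini-Hochberg adjusted p under 0.05 and a log2 fold change beyond 1 in size. Among the 12483 genes tested, each with 10 or more reads in 5 or more of these libraries, 0 were called higher and 0 lower, a background of 0% in each direction. Unadjusted p values under 0.05 were found for 540 genes (4.33%), of which 286 were higher (2.29%) and 254 lower (2.03%), where evenly spread p values would give 624. A positive log2 fold change was found for 6518 genes (52.2%). DESeq2 on the recovered reads called 1 gene higher and 1 lower of 12368 (0.00809% in each direction). In limma the smallest adjusted p was 0.138, for Spice1. That of every other tested gene, including the other tested genes named below, was 0.948 or above. Some genes named below failed the filter and have no adjusted p. Every K/BxN ST library lay above every Control ST library for 60 genes (0.481%) and below for 56 (0.449%).

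The error of the fold changes decides what these libraries could show. The median width of the 95% interval was 0.82 on the log2 scale to each side, which is 1.77-fold. For the 2633 genes with a mean of 1000 to 10000 normalised counts it was 0.41, and 96.4% of them had an interval within 1 log2 unit of 0. For the 3107 genes with a mean of 10 to 100 it was 2.50, so changes of several fold were not detectable there. The deposited scaling placed the median gene at 0.02, and other scalings moved this by at most 0.03.

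**Figure D2:**
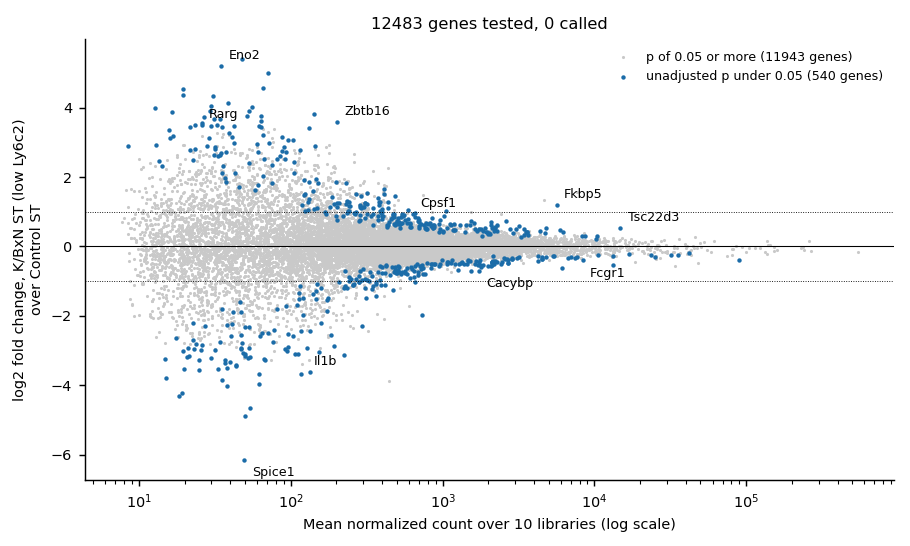
log2 fold change of K/BxN ST (Ly6c2 under 100) over Control ST against the mean normalised count over 10 libraries (log scale), 1 point per gene, with dotted lines at 1 log2 unit. The 540 genes with an unadjusted p under 0.05 lie on both sides of 0, and large differences are found among genes with low counts.

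The gene with the smallest p was Spice1, which encodes a centriole protein needed for mitotic spindle formation (chromosome 16, 44152345 to 44208860, GRCm39). It had no read in any of the 4 K/BxN ST libraries. In Control ST it was at 30.3, 114 and 34.5 in TASTPM and at 58.1, 99.8 and 159 in WT, and the K/BxN ST libraries left out held 50.6 to 195. Against 3 reads per library this is at least 24.0-fold lower (limma, adjusted p = 0.138). DESeq2 on the recovered reads called it (adjusted p = 4.80e-06), as did limma without a trend in the prior variance (adjusted p = 0.00471), whereas the quasi-likelihood test of edgeR did not (adjusted p = 1.000). Its log2 fold change stayed negative in all 29 alternatives, at −9.32 to −2.82, and the adjusted p values spanned 4.80e-06 to 1.000. Gm38342, a gene model without a known role, also had no read in the 4 libraries and was at 59.5, 57.7 and 31.8 in TASTPM and 0.937, 22.6 and 10.5 in WT Control ST, at least 8.87-fold lower. Gm43817 and Gm5628 completed the lower side at low counts, with log2 fold changes of −4.87 and −4.02. Leaving out 1 library at a time gave −6.14 to −4.28 for Gm43817 and −4.62 to −3.79 for Gm5628. Only WT K/BxN ST library 4 among the 4 had reads of Gm43817, at 27.3.

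Among genes with a mean of at least 100, Cacybp, Srsf11, Rgs19 and Fcgr1 were among the 8 with the lowest p values on the lower side. Cacybp, the calcyclin-binding protein, was at 1138, 1363, 1057 and 1470 in the 4 libraries and at 1477 to 2416 in Control ST, so every K/BxN ST library lay below every Control ST library. Its fold was 0.61 (95% interval 0.48 to 0.79). Srsf11, a splicing factor rich in serine and arginine, was at 1434 to 1677 against 2070 to 2702, a fold of 0.67 (0.55 to 0.83). Rgs19, which shortens signalling of Gi proteins, was at 1992 to 2387 against 2593 to 3331, a fold of 0.72 (0.61 to 0.86). These 3 groups of values do not overlap. Over all genes 56 (0.449%) were lower without overlap, and genes picked by a small p tend to be among them.

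Fcgr1 encodes CD64, the high-affinity IgG receptor. Its TASTPM K/BxN ST values were 6940 and 6613, and its WT K/BxN ST values 7779 and 6812. In Control ST it was at 9018, 9515 and 7381 in TASTPM and 10077, 10235 and 9748 in WT. Only the lowest Control ST library reached into the K/BxN ST range, and the fold was 0.76 (0.65 to 0.89; limma, adjusted p = 0.948). Over 30 alternatives it stayed lower, with log2 fold changes from −0.63 to −0.34 and adjusted p values of 0.118 or above. The other genes among the 8 with the smallest p on this side and a mean of at least 100 were Ramac, Gpr160, Surf2 and Manf. Their folds were 0.62, 0.68, 0.46 and 0.67. In each, all 4 K/BxN ST libraries were below all 6 Control ST libraries, beside 0.449% of all genes, which is no separate result for genes picked by p.

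On the higher side the lowest p values belonged to Fkbp5, described with the corticosteroid genes, and to genes that belong to none of the lists used here. Cpsf1, the largest subunit of the mRNA cleavage and polyadenylation factor, was at 990, 978, 920 and 710 against 381 to 632 in Control ST, a fold of 1.92 (1.38 to 2.68). R3hcc1l was at 340 to 627 against 157 to 267, a fold of 2.39 (1.51 to 3.77). Uba3, the catalytic subunit of the enzyme that activates NEDD8, was at 840 to 1160 against 522 to 745, a fold of 1.58 (1.21 to 2.08). In these genes, picked by p, all 4 K/BxN ST libraries were above all 6 Control ST libraries, beside 60 genes (0.481%) of all tested.

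Cdh23, a cadherin known from the tip links of hair cells, was at 2710, 1675, 1917 and 1991 against 1070 to 1646. It was at 491 to 810 in the K/BxN ST libraries left out, and with all K/BxN ST libraries in 1 group its log2 fold change turned to −0.16. Cdk20 and Wdr24, the latter a subunit of the GATOR2 complex that controls mTORC1, had folds of 2.41 and 2.83. Eno2, the neuronal enolase, was at 39.9, 135, 76.4 and 53.4 and had reads in only 1 Control ST library, TASTPM library 2, at 44.4. Mycl, a MYC family transcription factor, was at 984 to 1783 against 407 to 1479 (fold 2.02, 1.35 to 3.02), and Gm45191 at 35.0 to 224 with reads in 1 Control ST library at 61.8. Apart from Fkbp5, none of the genes on this side was called under any alternative tried.

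The homeostatic programme of microglia showed no detectable difference, and here the intervals were narrow. All 30 listed homeostatic genes were tested, 13 had a positive and 17 a negative log2 fold change, 0 had an unadjusted p below 0.05 (background 4.33%), and the median was −0.03 against 0.02 over all genes. The log2 fold changes ran from −0.27 to 0.31, and the 95% interval of each of the 30 genes lay within 1 log2 unit of 0, with no bound beyond 1.76-fold.

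P2ry12, the ADP receptor that steers microglial processes towards damage, was at 107606 and 110310 in TASTPM K/BxN ST against 165494, 124761 and 106484 in TASTPM Control ST. In WT it was at 140287 and 139465 against 149159, 166138 and 160388. The fold was 0.86 (0.72 to 1.03), and the groups overlap in TASTPM only. The K/BxN ST libraries left out held 34656 to 94752.

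Tmem119, a membrane protein used to tell microglia from other macrophages, was at 146688, 162963, 144647 and 133298 against 120565 to 147011 (fold 1.12, 0.96 to 1.29). Cx3cr1, the fractalkine receptor on which the sort was made, was at 124124 to 155865 against 97396 to 181794 (fold 1.04, 0.86 to 1.25). Csf1r, the receptor that microglia need to survive, had a fold of 1.11 (0.87 to 1.43), and Siglech of 0.97 (0.84 to 1.12). The ranges of the 2 serum groups overlap for all of these.

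Transcription factors and TGF-beta signalling gave like values. Of 21 tested microglial transcription factors 12 were positive and 1, Maf, was lower at an unadjusted p below 0.05 (background 2.03%), with 1882 to 2152 in the 4 libraries against 2044 to 3384. Sall1, which keeps microglial identity, was at 3062, 3405, 3781 and 4215 against 2827 to 3747 (fold 1.10, 0.90 to 1.35). Of 16 tested TGF-beta genes 8 were positive and 0 had an unadjusted p below 0.05, with a median of 0.05.

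Of 55 tested phagocytic and lysosomal genes 49 had intervals within 1 log2 unit, and of 29 tested genes of the disease-associated state of microglia 15 had. Of the phagocytic and lysosomal genes 19 were positive, beside 52.2% of all genes. At an unadjusted p below 0.05, 0 of them were higher and 3 lower (Ctsl, Ctsh and Scarb2), beside 2.29% and 2.03% of all genes. Trem2, the lipid-sensing receptor of disease-associated microglia, was at 23026, 25021, 27147 and 24001 against 19971 to 34698 (fold 0.95, 0.75 to 1.21). Mertk, a receptor for the uptake of dying cells, was at 10191 to 13267 against 7809 to 12940 (fold 1.12, 0.90 to 1.39), and Cd68, a lysosomal glycoprotein, at 20056 to 24372 against 18550 to 29512 (fold 0.92, 0.76 to 1.12).

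Of 29 tested genes of the disease-associated list 9 were positive, beside 52.2% of all genes, and the median was −0.17 against 0.02 over all genes. At an unadjusted p below 0.05 it had 1 higher gene, Cybb, and 2 lower, B2m and Ctsl, beside 2.29% and 2.03% of all genes. Ctsl, a lysosomal protease, was at 29318 to 34437 against 33411 to 48654 (fold 0.84, 0.71 to 0.98). Cybb, the catalytic subunit of the phagocyte NADPH oxidase, was at 715, 582, 588 and 1158 against 174 to 703, and at 12634 to 28501 in the K/BxN ST libraries left out. Apoe, the apolipoprotein of that state, was at 5833 to 15141 against 4624 to 35416. Itgax, the integrin CD11c, was at 396, 290 and 451 in 3 of the 4 libraries and at 3.52 in TASTPM K/BxN ST replicate 3, against 49.7 to 290 in Control ST, so that 3 libraries lay above and 1 below every Control ST library.

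The TLR4 pathway, which senses lipopolysaccharide and danger signals and leads to NF-kB, was listed together with cytokine, cytokine receptor and inflammasome genes. Of the 55 tested genes of this mixed list 31 were positive and 24 negative, with a median of 0.05. Tlr4 itself was at 4837, 5530, 5938 and 5426 against 3850 to 8350 in Control ST (fold 1.07, 0.81 to 1.42), with overlap throughout. Cd14, which hands lipopolysaccharide to the receptor, had a fold of 0.93 (0.80 to 1.08). At an unadjusted p below 0.05 there was 1 higher gene, Il4ra, and 5 lower, Il1b, Ly96, Pycard, Nfkbid and Il10rb, beside 2.29% and 2.03% of all genes.

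Il1b, the cytokine processed by the inflammasome, was at 182 in TASTPM K/BxN ST replicate 3 and at 24.8, 17.9 and 1.09 in the other 3 libraries. In Control ST it was at 378, 142 and 114 in TASTPM and at 131, 182 and 104.1 in WT. Its fold was 0.13 with a wide interval of 0.034 to 0.50 (limma, adjusted p = 0.948; exact permutation test, p = 0.03), and 3 of the 4 libraries lay below all 6 Control ST libraries. The K/BxN ST libraries left out held 510 to 3122, and with all K/BxN ST libraries in 1 group the log2 fold change turned to 0.01. In the 4 libraries it was −2.93, and it was −1.97 without WT K/BxN ST library 4 and −3.82 without TASTPM K/BxN ST replicate 3.

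Pycard, the inflammasome adaptor ASC, was at 1566 to 2001 against 2035 to 3668, with no overlap (0.449% of all genes were lower in this way). Ly96, the MD-2 partner of TLR4, was at 1420 to 1555 against 1480 to 2263 (fold 0.77, 0.61 to 0.97). Tnf was at 90.5 and 146 in 1 library of each genotype and had no read in the other 2, against 66.2 to 154 in Control ST. Irak3, which restrains TLR signalling in monocytes and macrophages, was at 105, 267, 297 and 334 against 1.87 to 157, and 3 of the 4 libraries were above all Control ST libraries (fold 4.85, 0.99 to 23.8; exact permutation test, p = 0.09). Its log2 fold change of 2.28 was 1.36 without WT Control ST library 1. It was at 556 to 878 in the K/BxN ST libraries left out.

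Interferon-stimulated genes showed 30 positive and 16 negative values among 46 tested, beside 52.2% positive over all genes, with a median of 0.23. At an unadjusted p below 0.05 Zbp1 and Slfn2 were higher and Mx2 lower, 3 of 46 beside a background of 4.33%. Zbp1, a sensor of Z-form nucleic acids, was at 110, 72.2, 105 and 198 against 0 to 65.4 in Control ST. Mx2, an antiviral GTPase, was at 0, 19.2, 53.8 and 0 against 64.0 to 133. Both genes separated the serum groups, in opposite directions, beside 0.481% of all genes higher and 0.449% lower without overlap.

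For antigen presentation, 9 class II genes had a median of 0.13 and 18 class I genes a median of −0.03. Cd74, the invariant chain of MHC class II, was at 3077 and 4515 in TASTPM and 1873 and 1407 in WT K/BxN ST, against 971 to 3213 in Control ST and 26822 to 105860 in the libraries left out (fold 1.63, 1.00 to 2.66). B2m, the light chain of class I, was at 64935 to 87211 against 74890 to 137215 (fold 0.77, 0.59 to 0.997). Nlrc5, which switches on class I genes, was at 167, 221, 223 and 195 against 5.22 to 185, and 3 of the 4 libraries lay above Control ST. Complement and Fc receptor genes had 13 negative values of 21, of which Fcgr1 was the only one with an unadjusted p below 0.05 (background 2.03% lower).

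Of 20 glycolytic genes 14 were positive, 0 had an unadjusted p below 0.05, and the median was 0.05. Pkm, pyruvate kinase, was at 5630, 5812, 4441 and 6507 against 3791 to 5895 (fold 1.12, 0.89 to 1.42), and Gpi1, glucose-6-phosphate isomerase, at 1429 to 2487 against 1316 to 2420 (fold 0.99, 0.71 to 1.39). Of 25 genes of the TCA cycle 15 were positive and 1, Idh1, was lower at an unadjusted p below 0.05 (background 2.03%). Of 32 cholesterol and lipid genes 13 were positive and 0 passed that limit, with a median of −0.16. Of 22 genes of oxidative stress and iron 13 were positive, with Cybb as the gene at that limit (background 2.29% higher), while the ferritin chains Fth1 and Ftl1 were at 36360 to 42057 against 40488 to 56160 and at 10489 to 11973 against 11621 to 16045.

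Of 21 tested heat shock and chaperone genes 6 were positive, beside 52.2% of all genes. At an unadjusted p below 0.05, 0 were higher and 3 lower, beside 2.03% of all genes that were lower, and the median was −0.19 against 0.02 over all genes. Hsp90aa1, a cytosolic chaperone, was at 2211, 1921, 1444 and 1920 against 2057 to 4600. Hspa5, the main chaperone of the endoplasmic reticulum, was at 26031, 21368, 20106 and 19520 against 22650 to 37337 (fold 0.81, 0.66 to 0.995). Calr, calreticulin of the same compartment, was at 14268 to 15884 against 15919 to 20222, with no overlap (0.449% of all genes were lower in this way). Manf, a secreted factor of the unfolded protein response that was not on the list, was at 1426 to 1973 against 2063 to 2967, also without overlap.

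**Figure D3:**
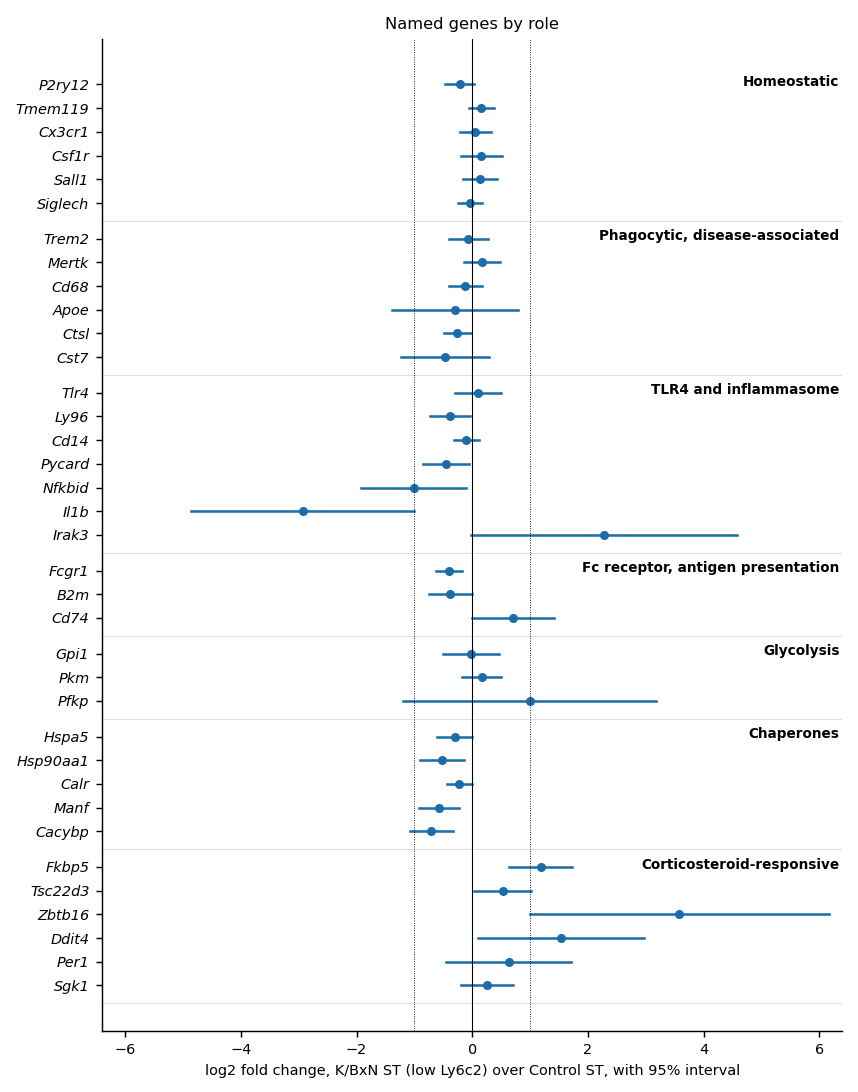
log2 fold change of named genes (points) with 95% intervals (lines) for K/BxN ST with Ly6c2 under 100 over Control ST, grouped by role, with dotted lines at 1 log2 unit. Intervals of homeostatic genes are short and span 0, whereas those of Il1b, Irak3, Pfkp and Zbtb16 are several log2 units wide.

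Among the lists with at least 10 tested genes, corticosteroid-responsive genes had the largest share of positive values, 78.6% beside 52.2% of all genes. Of 14 tested genes 11 were positive, 4 were higher and 0 lower at an unadjusted p below 0.05 (background 2.29% higher), and the median log2 fold change was 0.54 against 0.02 over all genes. The median was 1.18 in WT and −0.08 in TASTPM. The WT serum groups also differed in Y-linked reads, so serum and sex cannot be told apart in the WT values that follow. None was called by limma.

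Fkbp5, a co-chaperone of the glucocorticoid receptor and a standard readout of its activity (chromosome 17, 28618058 to 28737521), was at 4392 and 3800 in WT K/BxN ST against 2151, 1013 and 954 in WT Control ST. In TASTPM it was at 12172 and 10633 against 6738, 6540 and 8013. Within each genotype the groups do not overlap, but the TASTPM Control ST libraries lay above both WT K/BxN ST libraries. The fold was 2.27 (1.56 to 3.30; limma, adjusted p = 0.948; exact permutation test within genotype, p = 0.01, the smallest possible). The permutation p is no independent support, since a small limma p in these same libraries singled out Fkbp5. DESeq2 on the recovered reads called it, with a log2 fold change of 1.15 (adjusted p = 0.00302), and 30 alternatives gave adjusted p values between 0.00302 and 1.000 with no change of sign. Fkbp5 shares exon positions with 3 annotated genes on the opposite strand, whose reads these libraries cannot tell apart. The K/BxN ST libraries left out were at 1225 to 4349, below the Control ST range in TASTPM, and with all K/BxN ST libraries in 1 group the log2 fold change was 0.43.

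Tsc22d3, which encodes the glucocorticoid-induced leucine zipper, was at 13724 and 13570 in WT K/BxN ST against 8999, 8417 and 4332 in WT Control ST. In TASTPM it was at 18061 and 23034 against 16799, 20706 and 20779. Thus the groups were apart in WT and overlapped in TASTPM. Ddit4, an inhibitor of mTORC1 that is induced by stress and corticosteroids, was at 239 and 248 against 130, 47.8 and 12.4 in WT, and at 432 and 745 against 162, 473 and 680 in TASTPM.

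Zbtb16, a zinc finger protein, was at 160 and 108 in WT K/BxN ST against 87.2, 0 and 0 in WT Control ST. In TASTPM it was at 632 and 588 against 59.5, 251 and 134, so it did not overlap in either genotype. Sgk1, a kinase of salt and stress responses, was at 21028 and 17154 against 14925, 10935 and 12488 in WT, and at 10453 and 19062 against 19578, 12446 and 13532 in TASTPM. Its groups were apart in WT and not in TASTPM. Per1, a clock gene, was at 274 and 190 against 127, 111 and 43.9 in WT and within the Control ST range in TASTPM. Nr3c1, the glucocorticoid receptor itself, was at 3478 to 4451 against 3349 to 5224 (log2 fold change −0.06).

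**Figure D4:**
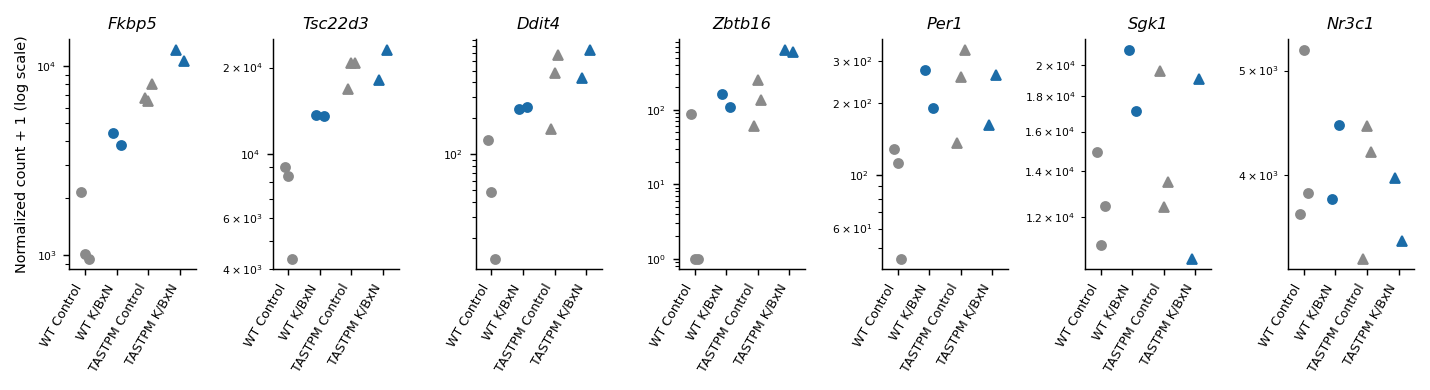
Normalised count + 1 (log scale, which does not start at 0) of 7 corticosteroid-responsive genes in the 10 libraries, by genotype and serum, 1 point per library; grey is Control ST and blue K/BxN ST with Ly6c2 under 100. For Fkbp5 and Zbtb16 the blue points lie above the grey points of their genotype, and TASTPM Control ST lies above WT Control ST for Fkbp5 and Tsc22d3, whereas Nr3c1 shows no such order.

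Many of the 23 genes named by the study were picked there from the RNA of all K/BxN ST libraries, and others, Tlr4 and P2ry12 among them, were also measured there as protein, so they are no independent list. Of the 23 genes 13 passed the filter on low counts. Of these 5 were positive and 8 negative, beside 52.2% positive over all genes, and 0 had an unadjusted p below 0.05 (background 4.33%). Of the 13 tested genes 8 had an interval within 1 log2 unit. For 21 of the 23 the mean of the 4 libraries lay within the Control ST range, and for 11 all 4 libraries did. In the K/BxN ST libraries left out, the mean of 12 of the 23 was over 10 times that of Control ST. Among the 12483 tested genes this held for 120, although the 23 include genes that failed the filter. In the same libraries 14 of the 23 were above all 10 other libraries and 3 below all of them. For the counts by range and by position no share over all genes was computed.

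Ifitm3, an interferon-induced membrane protein, was at 289, 675, 497 and 957 against 317 to 1009 in Control ST (fold 0.95, 0.51 to 1.77) and 12281 to 32670 in the libraries left out. Lgals3, a galectin of activated macrophages, was at 236, 171, 2.39 and 285 against 64.8 to 286, and at 9134 to 22744 in the libraries left out. Anxa1, which limits inflammation, was at 3.52 to 7.63 against 0.838 to 49.1 and 3184 to 11653. These 3 genes thus lay in the Control ST range in the 4 libraries, apart from Lgals3 and Ifitm3 below it in 1 library each, and far above it in the other 4.

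Pparg, a lipid-sensing nuclear receptor, had reads in 1 of the 4 libraries, at 2.26, and in 1 of the 6 Control ST libraries, against 82.2 to 175 in the libraries left out. Rgs18 was at 1.19 or less against 0 to 44.5 and 533 to 1533. Pfkp, a phosphofructokinase of glycolysis, was at 107, 95.9, 51.4 and 106 against 1.04 to 120 (fold 1.99, 0.44 to 9.04) and 953 to 2148. Its log2 fold change of 0.99 was 0.11 without TASTPM Control ST library 1. P2ry14, a receptor for UDP-glucose, had a different pattern, with 146 and 44.0 in TASTPM K/BxN ST, no read in WT K/BxN ST and reads in 1 Control ST library at 109. Gpr132, a lipid-sensing receptor, was at 15.3, 2.26, 2.39 and 0 against a single read's worth of 0.909 in 1 Control ST library.

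**Figure D5:**
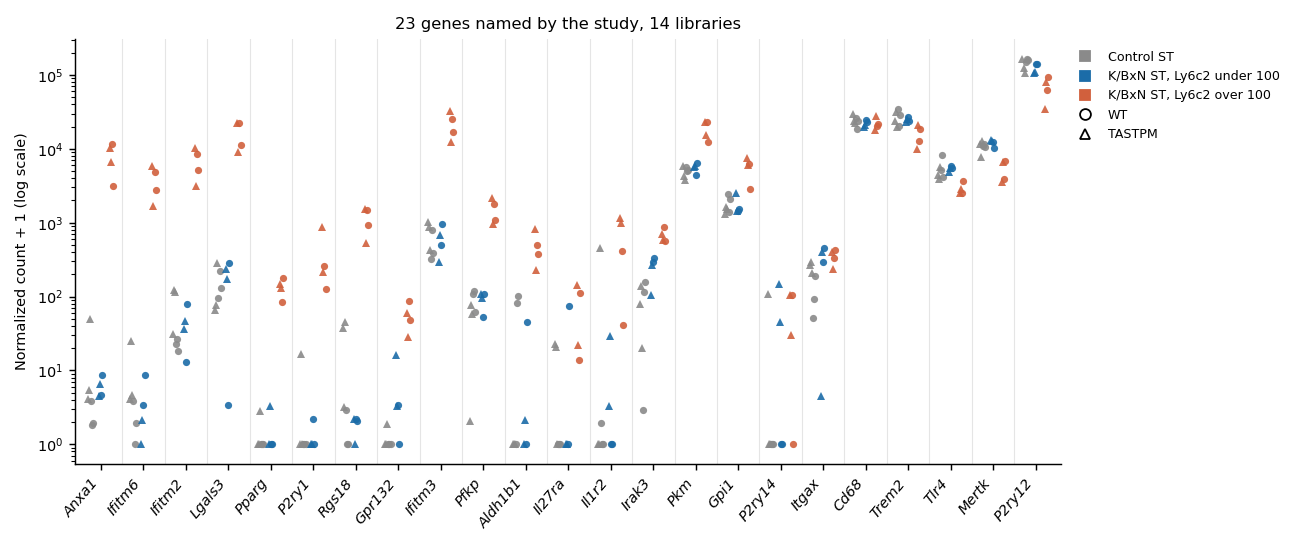
Normalised count + 1 (log scale) of the 23 genes named by the study in 14 libraries, ordered by the ratio of the K/BxN ST libraries with Ly6c2 over 100 to Control ST; circles are WT and triangles TASTPM. The blue points (Ly6c2 under 100) overlap the grey Control ST points for most genes, with all 4 inside the grey range for 11 of the 23, while the orange points stand apart for the genes on the left, with Lgals3 at 9134 to 22744.

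In an earlier analysis of these data 6 genes had stood out, of which 5 passed the filter here, so they too are no independent list. Rarg, the retinoic acid receptor gamma, was at 71.7, 25.9, 54.9 and 44.7 against 42.8, 9.99 and 9.99 in TASTPM Control ST and no read in WT Control ST. It was at 85.6 to 254 in the libraries left out. Bcl2, which protects from apoptosis, was at 229, 55.3, 180 and 89.4 against 194 to 372. Stat4 was at 94.0, 18.1, 2.39 and 0 and had reads in 1 Control ST library.

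Taken by genotype, 0 genes were called in WT and 0 in TASTPM, and 521 (4.17%) and 494 genes (3.96%) had an unadjusted p under 0.05. The smallest adjusted p was 0.301 in the WT and 0.548 in the TASTPM comparison. For the interaction term, which asks whether the serum difference depends on genotype, there were 0 calls, and 475 genes (3.81%) had an unadjusted p under 0.05. DESeq2 called 14 genes for the interaction, 7 in each direction, the Y-linked Ddx3y with its uneven values over the libraries among them, and edgeR called 0, with an unadjusted p under 0.05 for 394. Without TASTPM K/BxN ST replicate 4 limma called 14 as well, all lower, which leaves 1 library in that group and assumes that it varied like the others. For Fkbp5 the difference was 1.68 in WT and 0.69 in TASTPM on the log2 scale, and the interaction had an adjusted p of 0.997 in limma. In the WT comparison and the interaction, serum cannot be told apart from the difference in Y-linked reads between the WT serum groups.

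The 3 genes with the smallest p for the interaction were Sh3yl1, Cd36 and Utp25. Cd36, a scavenger receptor for lipids, was at 0 and 0 in TASTPM K/BxN ST against 103, 148 and 72.7 in TASTPM Control ST. In WT it was at 417 and 169 against 0.937, 81.3 and 64.9, so it was lower in TASTPM and higher in WT K/BxN ST. Utp25 was at 19.97 and 58.7 against 120 to 166 in TASTPM and at 152 and 205 against 4.19 to 19.1 in WT. Sh3yl1 was at 0 and 0 against 21.9, 36.6 and 27.3 in TASTPM and at 68.1 and 16.4 against no read in WT. All 3 thus differed in opposite directions in the 2 genotypes, each with an adjusted p of 0.997 in limma. DESeq2 called all 3 among its 14 interaction genes, with adjusted p values of 0.0444 for Sh3yl1, 0.000934 for Cd36 and 0.00609 for Utp25.

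Among genes of other cell types, border macrophage genes, of which 4 of 10 could be tested, had Cbr2 lower at an unadjusted p below 0.05 (background 2.03%), with reads in 1 of the 4 libraries at 16.9 and in 5 of the 6 Control ST libraries. Of 9 tested astrocyte genes 5 were positive and 4 negative, and 1, Slc1a3, was higher at that limit (background 2.29%), at 5008, 7328, 5357 and 4460 against 2860 to 5434. The 2 neuron genes that could be tested had opposite signs. Nefl, lower at that limit, was at 0, 32.7, 41.8 and 0 against 28.2 to 200, and Snap25 was at 291, 263, 146 and 93.8 against 0 to 279 (log2 fold changes −3.21 and 2.82). Neutrophil, dendritic cell, B cell, oligodendrocyte, endothelial and mural, and red cell genes had 0 at that limit. Red cell genes took 0.242% of the reads in WT Control ST library 3 and at most 0.0276% in the 4 K/BxN ST libraries.

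The counts that follow stand beside 2.29% of all genes higher and 2.03% lower at an unadjusted p below 0.05, and 52.2% positive. Cell cycle genes had 12 positive values of 18 tested, and 1 was higher at that limit, Mcm6, a subunit of the replicative helicase that was at 539, 549, 677 and 743 against 69.1 to 597. Clock genes had 11 positive values of 15, with Nr1d1 higher and Arntl lower at that limit, which were at 74.1 to 317 against 0 to 132 and at 20.3 to 328 against 230 to 560. Immediate early genes had 15 positive values of 23 with 2 higher at that limit, among them Klf2, a flow- and quiescence-related transcription factor, at 1175 to 2357 against 634 to 1907. Nuclear receptors had 11 positive values of 16 with 2 higher, Rarg and Nr1d1, and survival genes 6 of 15 with 2 lower, Bcl2 and Bik. Purinergic and other G protein-coupled receptor genes had 6 positive values of 28 with 2 lower, Rgs19 and Lpar6. Toll-like receptors other than TLR4 had 3 positive values of 12 and galectins 3 of 6, with 0 at that limit in both. Of the 13 mitochondrial transcripts 6 were positive, 0 were higher and 2 lower at that limit, mt-Nd2 and mt-Nd6 with log2 fold changes of −0.62 and −0.60. Their median was −0.23, and the highest value was 2.16, for mt-Nd4l.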

How the data were processed

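Gene expression was measured by RNA-seq of amplified cDNA (SMART-Seq v4, NEBNext Ultra, which does not mark strand) in 14 libraries of sorted microglia. The authors aligned reads with HISAT2 2.1 to GRCm39, counted them with featureCounts 1.5.2 on Ensembl annotation 104 and used DESeq2. The deposited values are signal in the sense of reads divided by 1 size factor per library. Whole reads were recovered for 100% of values (tolerance 0.01 of a read), after 7 repeated identifiers were dropped from 14336 rows to leave 14329 genes. The main test was limma 3.58.1 with a trend on log2(normalised count + 1) in R 4.3.3, with serum and genotype as terms, over the 12483 genes that had 10 or more reads in 5 or more of the 10 libraries. edgeR 4.0.16 and DESeq2 1.42.0 on the recovered reads were alternatives, beside other scalings, pseudocounts, filters, covariates, sets of libraries and leaving out each library. Fold changes are on the scale with a pseudocount of 1 and, for genes with values near 0, can lie above or below the ratio of group means, and intervals are at 95%. Single values were tested by exact two-sided permutation within genotype, with 100 arrangements. For genes picked by their p in these libraries, a permutation p is no independent support. The scripts were tested on simulated data. Depth was 14223000 to 20239200 reads per library, and floors of 3 reads cover counting error only.

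The libraries, the gene lists and the tests were chosen with earlier results of these data known. Named genes were the 8 with the smallest p in each direction, the same among genes with a mean of at least 100, the genes named by the study and by an earlier analysis, up to 3 with the smallest p from each list, defining markers and the 3 with the smallest interaction p. Some list members named beside them were chosen after their values were seen: Apoe, Cd14, Clec4e, Csf1r, Ddit4, F13a1, Il10rb, Il4ra, mt-Nd4l, Nfkbid, Nr3c1, Per1, S100a4, Sall1, Sgk1, Siglech, Tnf and Xist. Of 173 named genes, 95 share exon positions with another gene, so their reads may be split uncertainly. WT and Control libraries are numbered in the order of the deposited values, since those column numbers could not all be joined to the labels. Some items are not reported here.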

Additional observations from a re-analysis of the deposited data

Results flagged for a closer look

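Of 243 groups of values examined, 23 had 1 library far from the others by Dixon's test, where chance flags about 1 group in 20. In the 4 K/BxN ST libraries, TASTPM replicate 3 was highest for Gpi1 (2487) and Ddx3y (1048) and lowest for Itgax (3.52) and Xist (1.17), in normalised counts. WT library 3 was lowest for Pfkp (51.4), Lgals3 (2.39) and Chil3 (14.3) and for the share of reads on clock genes (0.0310%). WT library 4 was highest for Gm43817 (27.3) and lowest for the share on complement and Fc receptor genes (3.27%).

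In the 6 Control ST libraries, TASTPM library 3 was highest for Il1r2 (449.8), Anxa1 (49.1) and the shares on immediate early (0.341%) and survival genes (0.107%). TASTPM library 1 was highest for P2ry14 (109) and lowest for Pfkp (1.04), and TASTPM library 2 was highest for Eno2 (44.4). WT library 1 was highest for Ctsl (48654) and lowest for Cd36 (0.937) and the endothelial and mural share (0.00116%). WT library 3 was highest for Stat4 (20.1) and the red cell share (0.242%) and lowest for Gm43817 (15.3).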

How the results depend on the processing

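The count of called genes, 0, became 1 without a trend in the prior variance, 1 with all 14 libraries and the Ly6c2-high K/BxN ST libraries as a group of their own, 1 with log2 Ly6c2 as a covariate, and 2 under DESeq2, and it was 0 under the other scalings, pseudocounts, filters and covariates and under edgeR. Leaving out each library in turn gave 0 to 0 calls. With every K/BxN ST library in 1 group it was 0, with 1234 genes at an unadjusted p below 0.05. Without WT Control ST library 1 and TASTPM K/BxN ST replicate 3, a pair chosen after seeing the data, it was 0 with 503 genes at that limit. Scaling to library totals gave 344 higher and 207 lower genes at that limit in place of 286 and 254. The interaction, with 0 calls, had 2 without a trend (Sh3yl1 and Myo10), 14 under DESeq2 and 0 to 14 when 1 library was left out, the 14 without TASTPM K/BxN ST replicate 4. The cause of these shifts was not tested. For 81 named genes, 2375 values under alternatives held 97 changes of sign in 32 genes, all of them uncalled, and 5 calls, 4 of Spice1 and 1 of Fkbp5. No paired analysis was possible because the labels give each library a number of its own that no other group shares. Intervals were wide for low genes, with a median half-width of the 95% interval of 2.50 log2 units at a mean of 10 to 100. The part of depth and of 2 to 3 libraries per group in this width was not tested.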
